A study of Mus musculus with 18 samples.

Results

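The smooth muscle and myofibroblast contractile genes were followed in mice that lack repeat B of *Xist*, the long non-coding RNA that coats and silences 1 X chromosome in female cells. They were the 10 genes *Acta2*, *Actg2*, *Tagln*, *Cnn1*, *Myh11*, *Myl9*, *Tpm1*, *Tpm2*, *Cald1* and *Des*, taken by symbol from RNA-seq count tables that list 21959 genes for mouse embryonic fibroblasts (MEFs) and 51826 genes for liver. Each table held 3 libraries labelled as repeat B deletion (RepB-/-, homozygous in the study's notation) and 3 labelled as wild type (WT). The deletion was made by CRISPR/Cas9 injection of zygotes, homozygous females were obtained by breeding, and the labels name no other allele or treatment. The MEFs were cultured as primary cells in high-glucose medium with fetal bovine serum. The labels of these libraries also give tail as the tissue, and neither the age and sex of the sequenced animals nor whether cultures were pooled is stated there. All 10 genes passed the filter on low counts in both tissues.

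In smooth muscle cells, actin filaments slide along myosin filaments when the myosin light chain is phosphorylated. Part of the gene set, with *Acta2*, is switched on when fibroblasts in culture or in a healing wound turn into myofibroblasts, the contractile, matrix-producing cells of scars. Hepatic stellate cells and vessel walls are sources of the set in liver. Transcription of the set is driven by serum response factor (SRF) with its cofactors of the myocardin family, which respond to actin dynamics through RhoA, and by transforming growth factor beta (TGF beta). *Acta2* and *Actg2* encode the alpha and gamma smooth muscle actins, *Myh11* the smooth muscle myosin heavy chain and *Myl9* its regulatory light chain. *Tpm1* and *Tpm2* encode tropomyosins, which lie along the actin filament, and *Cnn1* (calponin), *Cald1* (caldesmon) and *Tagln* (transgelin) encode other actin-binding proteins. *Des* encodes desmin, the muscle intermediate filament protein.

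The MEF libraries held between 11540344 and 20587556 counts and the liver libraries between 37682201 and 51542709. The WT MEF libraries were the shallower ones, yet 17191 to 17664 genes had a count in them, against 15453 to 15545 in RepB-/-. In liver, both libraries numbered 1 stood apart from the other 4, since the summed level of 5 fetal liver genes was 4753 and 5970 CPM (read counts scaled to a common library size) in them and at most 20.2 CPM in the others. The liver library labelled RepB-/- replicate 2 had 4342 counts on Y-linked genes and 4 on *Xist*, whereas the other 5 liver libraries had at most 1 and at least 14494. These values go against a homozygous deletion on a pair of X chromosomes for that library, so the liver result of the 10 genes is also given without it. Liver RepB-/- replicate 3 had 19.3% of its counts on the mitochondrial genome, against 5.45% to 7.03% in the other 5 liver libraries. The MEF libraries had 0 to 4 counts on Y-linked genes, and *Xist* was not listed for them. Fibroblast markers summed to between 3725 and 5791 CPM in MEFs, and hepatocyte markers to at most 1.28 CPM there and at least 87938 CPM in liver, so both tissues carried the markers of their labels. In whole tissue or a mixed culture, fewer contractile cells and less RNA per cell cannot be told apart.

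In MEFs, 7 of the 10 contractile genes were lower in RepB-/- than in WT, and 0 were higher (edgeR quasi-likelihood test, Benjamini-Hochberg adjusted p under 0.05). In that comparison 19.7% of all 13306 genes tested were lower and 19.4% were higher. The median log2 fold change of the 10 genes was -0.63, beside 0.00030 for all genes tested. Summed over the 10 genes and scaled by library total alone, the level was 4773, 5138 and 5512 CPM in the RepB-/- libraries and 6583, 8879 and 8168 CPM in the WT libraries, with no overlap between the genotypes. With library size alone as the scaling of the test, 7 of the 10 were lower (27.2% of all genes), and with DESeq2 6 were (16.3%). Levels below are CPM scaled by the trimmed mean of M values, in the order of replicates 1, 2 and 3.

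Both smooth muscle actins fell. *Acta2* (chr19:34218490-34232990, minus strand, GRCm39) measured 1856, 1932 and 2230 CPM in RepB-/- and 2657, 4019 and 3518 CPM in WT. Every RepB-/- library lay below every WT library, and the mean was 2006 ± 198 CPM (SD, n = 3) against 3398 ± 689 CPM (log2 fold change -0.76 ± 0.13 SE, adjusted p = 0.000468). *Actg2*, which is otherwise typical of gut smooth muscle, measured 67.8, 82.5 and 92.5 CPM in RepB-/- and 178, 327 and 279 CPM in WT. Its genotypes did not overlap, and WT was 3.23-fold higher on average (log2 fold change -1.69 ± 0.17 SE, adjusted p = 1.04e-05).

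The myosin genes fell by unequal amounts. *Myh11* showed the lowest fold change of the 10 genes, with 13.7, 11.5 and 12.7 CPM in RepB-/- and 29.9, 59.4 and 60.4 CPM in WT. Its RepB-/- libraries lay close together, and WT replicate 1 was the lowest of the WT libraries while still above all of RepB-/- (3.95-fold higher in WT on average, log2 fold change -1.99 ± 0.20 SE, adjusted p = 1.23e-05). *Myl9*, the light chain whose phosphorylation starts contraction, measured 173, 171 and 197 CPM in RepB-/- and 253, 386 and 340 CPM in WT. Its genotypes were also fully separate (log2 fold change -0.85 ± 0.12 SE, adjusted p = 0.000137).

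Among the actin-binding regulators, *Cnn1*, a late marker of smooth muscle differentiation, fell from 224, 331 and 268 CPM in WT to 73.2, 96.4 and 121 CPM in RepB-/-. WT was 2.84-fold higher on average with no overlap (log2 fold change -1.50 ± 0.16 SE, adjusted p = 1.39e-05). The tropomyosins fell less. *Tpm1* measured 1145, 1188 and 1243 CPM in RepB-/- and 1274, 1645 and 1503 CPM in WT (log2 fold change -0.31 ± 0.093 SE, adjusted p = 0.0182), so that WT replicate 1 lay just above the highest RepB-/- library. *Tpm2* measured 273, 319 and 364 CPM in RepB-/- and 336, 548 and 468 CPM in WT (log2 fold change -0.50 ± 0.14 SE, adjusted p = 0.0136), and here WT replicate 1 lay below RepB-/- replicate 3. Thus 6 of the 10 genes had no overlap between the genotypes with RepB-/- lower, where 25.8% of all genes tested did.

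**Figure D1:**
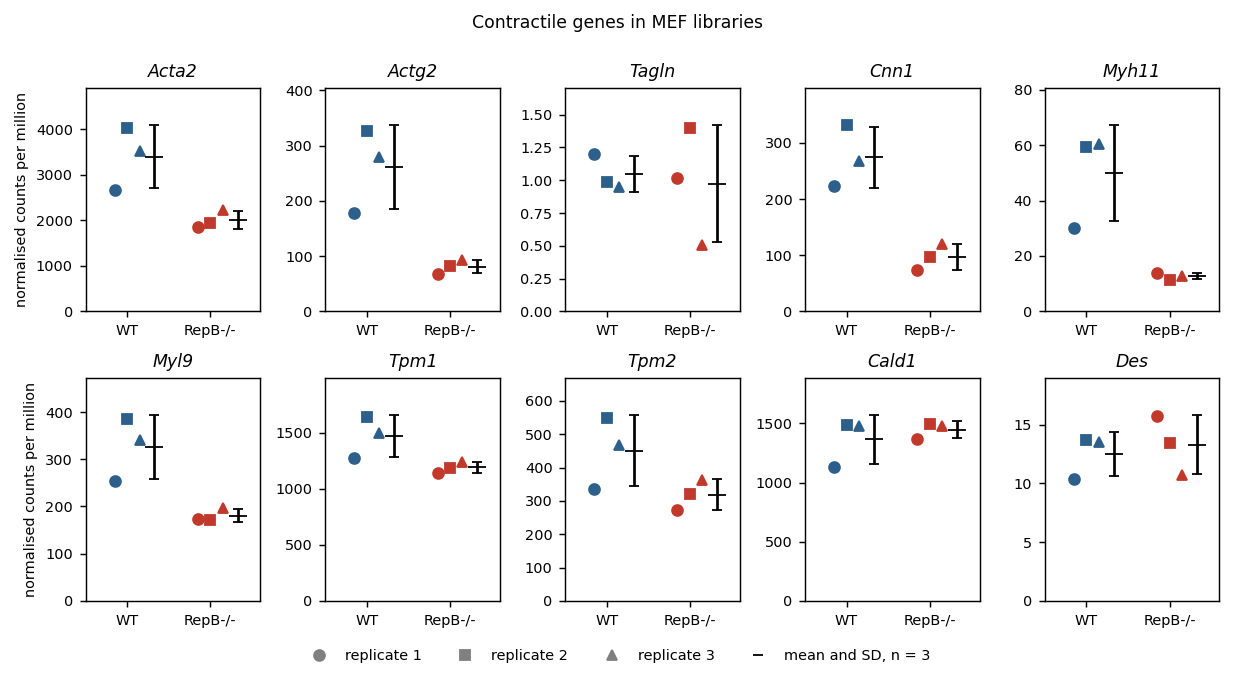
Normalised CPM of the 10 contractile genes in each MEF library, with a vertical axis from 0 for each gene, symbols for the replicates and bars for mean and SD (n = 3). The RepB-/- libraries lie below all WT libraries for *Acta2*, *Actg2*, *Cnn1*, *Myh11*, *Myl9* and *Tpm1*, overlap WT for *Tpm2*, and overlap it without a call for *Tagln*, *Cald1* and *Des*.

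The remaining 3 genes did not pass the test. *Cald1* measured 1366, 1495 and 1480 CPM in RepB-/- and 1127, 1487 and 1482 CPM in WT (log2 fold change 0.084 ± 0.10 SE, adjusted p = 0.544). *Cald1* is spliced into a smooth muscle and a non-muscle caldesmon, which gene counts do not separate, and the same holds for the isoforms of *Tpm1* and *Tpm2*. *Des* was low, between 10.3 and 15.7 CPM in all 6 libraries (log2 fold change 0.078 ± 0.16 SE, adjusted p = 0.722). For both genes the fold change was slightly below 0 when library size alone was used for scaling. *Tagln* had only 10 to 27 counts in any MEF library, or 0.507 to 1.39 CPM (log2 fold change -0.096 ± 0.42 SE, adjusted p = 0.875), whereas it had 220 to 1618 counts in the liver libraries. In the reference annotation 67.9% of the exon bases of *Tagln* lie under genes on the opposite strand, an antisense gene and *Pcsk7*, and how the counting treated such bases is not given in the sources used here. The values of *Tagln* are therefore uncertain in both tissues, and the part of this overlap in them was not tested. Of the other 9 genes, only *Des* shares exon bases with another gene (5.86%).

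The calls of *Acta2*, *Actg2*, *Cnn1*, *Myh11* and *Myl9* held when any 1 MEF library was left out, with adjusted p at most 0.00571. *Tpm1* lost its call without RepB-/- replicate 1 (adjusted p = 0.0912), RepB-/- replicate 2 (0.0792), WT replicate 2 (0.0660) or WT replicate 3 (0.0696), and *Tpm2* lost its call without RepB-/- replicate 1 (0.0779) or WT replicate 2 (0.0640) and with DESeq2 (0.0899).

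**Figure D2:**
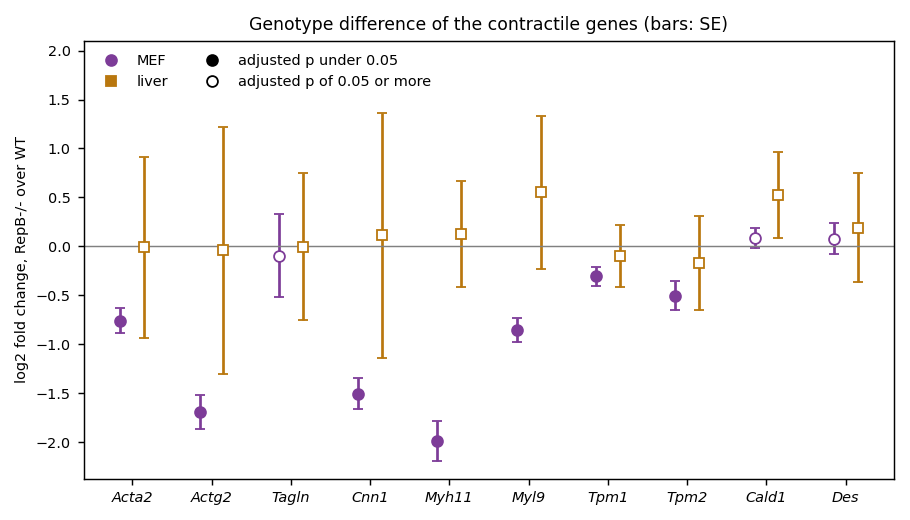
Log2 fold change of each contractile gene, RepB-/- over WT, in MEFs (circles) and liver (squares), with SE as bars and filled symbols for an adjusted p under 0.05. In MEFs 7 genes lie below 0 with a call, from -1.99 for *Myh11* to -0.31 for *Tpm1*, and in liver 0 of 10 have a call, with SE between 0.32 and 1.26.

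Levels can be compared between genes only per length, for which the deposited FPKM of the MEF table were used. In WT MEFs *Acta2* stood first, at 1308 to 1843 FPKM, above *Myl9* (235 to 335 FPKM) and *Tpm1* (212 to 256 FPKM), whose ranges overlapped. *Actg2*, *Tpm2*, *Cald1* and *Cnn1* followed between 88.5 and 211 FPKM, and each overlapped the next. *Myh11* (4.25 to 8.18 FPKM), *Des* (2.98 to 3.70 FPKM) and *Tagln* (0.492 to 0.654 FPKM) were set apart below. In RepB-/- the order changed in its middle. *Cald1* (109 to 120 FPKM) overlapped *Tpm2* (89.8 to 120 FPKM), both above *Actg2* (41.7 to 56.9 FPKM) and *Cnn1* (25.6 to 42.3 FPKM), and *Myh11* (1.46 to 1.73 FPKM) now lay under *Des* (2.73 to 4.02 FPKM).

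Most of the contractile proteins have non-muscle relatives in fibroblasts, and the share of each family's summed FPKM in a library does not depend on how libraries are scaled. *Acta2* made up 21.2%, 22.4% and 25.1% of the FPKM of 6 actins in RepB-/- MEFs and 36.8%, 38.6% and 37.4% in WT. *Actb*, the cytoplasmic beta actin, made up 46.9%, 46.1% and 44.4% in RepB-/- and 30.3%, 29.8% and 31.5% in WT, so that *Actb* exceeded *Acta2* in every RepB-/- library and the reverse held in every WT library. *Myh11* was 0.604% ± 0.041 (SD, n = 3) of the FPKM of *Myh11*, *Myh9* and *Myh10* in RepB-/- and 2.85% ± 0.72 in WT. *Cnn1* was 9.51% ± 2.4 of 3 calponins in RepB-/- and 23.0% ± 1.3 in WT. *Tpm1* and *Tpm2* together were 48.3% ± 1.2 of 4 tropomyosins in RepB-/- and 58.4% ± 2.0 in WT. Each of these shares separated the genotypes without overlap, for which a two-sided exact permutation test of 3 against 3 libraries gives p = 0.1, the smallest p it can reach. In liver the same shares overlapped between genotypes, for example 3.76% ± 1.5 in RepB-/- and 3.01% ± 2.8 in WT for *Acta2*.

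**Figure D3:**
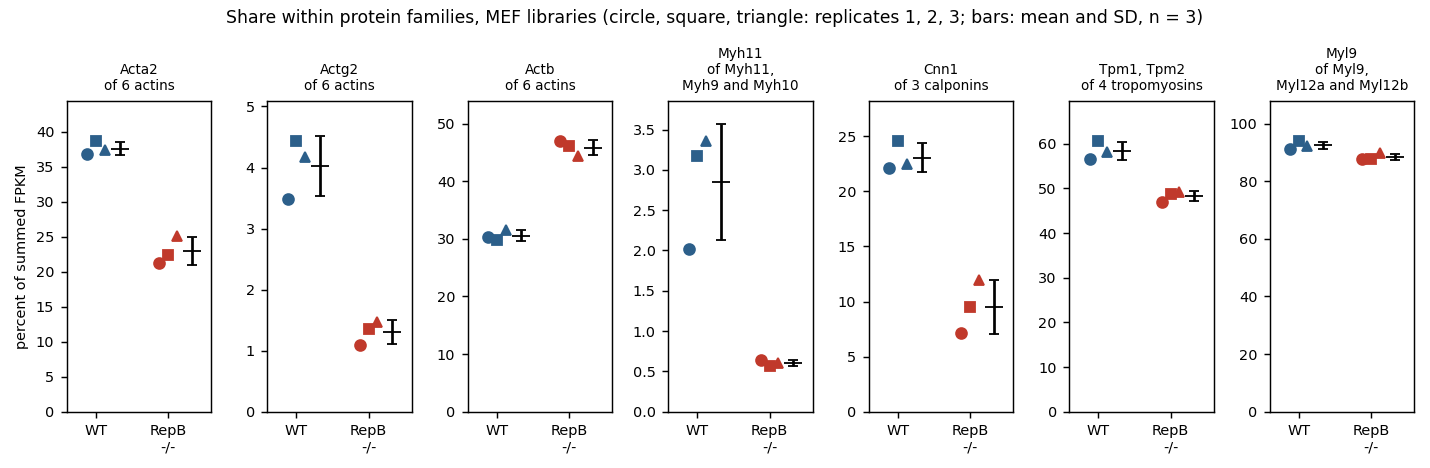
Share of a protein family's summed FPKM, in percent, taken by the named genes in each MEF library (vertical axes from 0, points for replicates, bars for mean and SD, n = 3). The smooth muscle members take a smaller share in all 3 RepB-/- libraries than in any WT library, and *Actb* a larger one.

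Of the 12 non-muscle relatives themselves, 4 rose and 1 fell in MEFs, where 19.4% of all genes tested rose and 19.7% fell. Their median log2 fold change was 0.037, but with library size alone 2 rose and 5 fell, where 1645 and 3623 of all 13306 genes did. The largest increase was that of *Actb* (0.54 ± 0.11 SE, adjusted p = 0.00211), and *Myh9*, non-muscle myosin heavy chain, also rose (0.32 ± 0.094 SE, adjusted p = 0.0152, and 0.0563 without RepB-/- replicate 1).

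Other genes that are enriched in smooth muscle were counted next. Beside this and each later MEF list stand the shares over all genes tested, 19.7% lower and 19.4% higher. With library size alone 27.2% were lower, and 1645 of the 13306 genes were higher. Of 15 tested, 5 fell and 1 rose, with a median log2 fold change of -0.20, and with library size alone 10 fell and 1 rose. *Kcnmb1*, a subunit of the large-conductance potassium channel that relaxes smooth muscle, had 3.93, 5.94 and 5.29 CPM in WT and 1.02, 1.29 and 1.22 CPM in RepB-/- (log2 fold change -2.10 ± 0.27 SE, adjusted p = 6.64e-05). Its RepB-/- values rest on 20, 25 and 24 counts. *Mylk*, the kinase that phosphorylates the myosin light chain, fell from 43.4, 66.2 and 65.9 CPM to 39.4, 33.6 and 30.3 CPM (log2 fold change -0.77 ± 0.14 SE, adjusted p = 0.000911). *Ppp1r14a*, an inhibitor of myosin phosphatase, also fell (log2 fold change -1.05 ± 0.36 SE, adjusted p = 0.0324), but its genotypes overlapped and the call was lost without RepB-/- replicate 2 (adjusted p = 0.112), RepB-/- replicate 3 (0.108) or WT replicate 2 (0.166). *Synpo2*, which encodes an actin-bundling protein of muscle, went the other way (log2 fold change 0.72 ± 0.15 SE, adjusted p = 0.00175).

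The regulators of the set moved in both directions. Of 10 genes for SRF, its cofactors and its brakes, 3 fell and 2 rose, where 19.7% of all genes tested fell and 19.4% rose. Their median log2 fold change was -0.048, and with library size alone 4 fell and 1 rose. *Myocd*, the myocardin gene and the cofactor most specific to cardiac and smooth muscle, was low throughout, at 1.43, 1.14 and 1.12 CPM in RepB-/- and 2.25, 4.14 and 2.85 CPM in WT (log2 fold change -1.33 ± 0.32 SE, adjusted p = 0.00466). *Gata6*, a transcription factor expressed in vascular smooth muscle, fell further, from 4.73, 3.77 and 3.09 CPM to 0.866, 0.878 and 0.760 CPM (log2 fold change -2.19 ± 0.30 SE, adjusted p = 0.000120). In RepB-/- these rest on 28, 22 and 22 counts for *Myocd* and 17, 17 and 15 for *Gata6*. Without the filter on low counts the median log2 fold change of all 19330 MEF genes was -0.12. The part of that shift in the falls of *Myocd*, *Gata6*, *Kcnmb1* and the low-count cell type markers given below was not tested. *Elk1*, a partner of SRF at growth-response genes, fell (log2 fold change -0.52 ± 0.089 SE, adjusted p = 0.000497), and *Mrtfb*, a myocardin-related cofactor, rose (0.38 ± 0.080 SE, adjusted p = 0.00212). *Srf* itself and *Mrtfa*, which are named here after their values were seen, did not pass (0.027 ± 0.075 SE, adjusted p = 0.799, and -0.035 ± 0.080 SE, adjusted p = 0.758).

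SRF binds the CArG box, a pair of C, 6 bases of A or T and a pair of G, which reads alike on both strands. RefSeq promoter windows on GRCm38.p6, from 250 bases before to 50 bases after a start, were at hand for 7 of the 10 genes in 8 windows, and *Actg2*, *Tagln* and *Myh11* had none. The 200 bases before the start are shown for 3 genes that fell and have a match or near match in them, *Acta2* (chr19:34255374-34255573, minus strand), *Myl9* (chr2:156775264-156775463, plus strand) and *Tpm1* (chr9:67049214-67049413, minus strand), and for *Cnn1* (chr9:22099053-22099252, plus strand), which fell and has none. They read 5′ to 3′, and capitals mark matches with at most 1 other base.
Acta2: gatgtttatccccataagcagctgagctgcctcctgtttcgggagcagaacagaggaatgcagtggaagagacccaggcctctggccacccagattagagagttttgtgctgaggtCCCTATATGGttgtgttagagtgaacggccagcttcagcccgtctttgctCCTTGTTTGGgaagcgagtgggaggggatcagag
Myl9: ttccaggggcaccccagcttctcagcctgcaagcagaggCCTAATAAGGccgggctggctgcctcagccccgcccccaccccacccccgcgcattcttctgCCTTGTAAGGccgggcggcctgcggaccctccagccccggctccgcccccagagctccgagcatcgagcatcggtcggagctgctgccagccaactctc
Tpm1: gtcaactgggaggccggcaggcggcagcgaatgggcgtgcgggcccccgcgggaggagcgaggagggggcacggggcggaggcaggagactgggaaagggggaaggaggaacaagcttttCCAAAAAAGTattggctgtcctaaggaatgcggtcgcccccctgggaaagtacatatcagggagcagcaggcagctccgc
Cnn1: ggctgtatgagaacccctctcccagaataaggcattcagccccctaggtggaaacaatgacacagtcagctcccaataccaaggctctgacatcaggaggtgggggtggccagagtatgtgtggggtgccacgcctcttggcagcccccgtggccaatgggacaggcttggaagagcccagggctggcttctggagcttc

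A full match was found in 1 of the 8 windows, that of *Myl9* at positions -161 to -152 from the start (CCTAATAAGG), where 1.63% of 32851 promoter windows of the same length have one. With 1 other base allowed, 4 of 8 windows had a match (*Myl9*, *Acta2*, *Tpm1* and *Cald1*), and so did 21.1% of all windows. *Acta2* had CCCTATATGG at -84 to -75 and CCTTGTTTGG at -34 to -25. These matches are letters in a window and no measure of binding, and *Cald1*, with such a match, had no call in MEFs while *Cnn1*, without one, fell.

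Other target genes of SRF and of the YAP coactivator, outside the contractile set, were counted too. Of 11 tested, 3 rose and 1 fell, where 19.4% of all genes tested rose and 19.7% fell. Their median log2 fold change was 0.12, and with library size alone 2 rose and 1 fell. *Filip1l* (0.87 ± 0.090 SE, adjusted p = 1.28e-05) and *Ccn1*, a matricellular growth regulator (0.58 ± 0.11 SE, adjusted p = 0.00138), rose, and *Tuft1* fell (-0.99 ± 0.15 SE, adjusted p = 0.000267). For the signalling step upstream, 4 of 11 genes for RhoA and myosin phosphatase signalling rose and 0 fell, with a median of 0.11. With library size alone 3 rose and 1 fell. They included *Rock2* (0.83 ± 0.12 SE, adjusted p = 0.000153) and *Rock1* (0.66 ± 0.093 SE, adjusted p = 0.000137), kinases that inhibit myosin phosphatase, and *Ppp1cb*, a catalytic subunit of that phosphatase (0.42 ± 0.074 SE, adjusted p = 0.000719).

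TGF beta is the best known inducer of the myofibroblast state. Of 16 genes of its pathway, 5 fell and 5 rose, with a median log2 fold change of 0.064, and with library size alone 5 fell and 3 rose. The ligand genes *Tgfb1* (-0.70 ± 0.072 SE, adjusted p = 1.20e-05) and *Tgfb3* (-0.75 ± 0.11 SE, adjusted p = 0.000149) fell, as did *Skil*, a feedback inhibitor (-0.79 ± 0.12 SE, adjusted p = 0.000285). *Tgfb1* measured 122, 115 and 115 CPM in RepB-/- and 206, 188 and 179 CPM in WT. The co-receptor gene *Tgfbr3* (0.78 ± 0.098 SE, adjusted p = 5.81e-05) rose, and so did *Thbs1*, an activator of latent TGF beta (0.58 ± 0.12 SE, adjusted p = 0.00232).

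Most of the matrix genes that mark myofibroblasts rose. Of 12 tested, 8 rose and 0 fell, with a median log2 fold change of 0.49, and the counts were the same with library size alone. *Postn*, which encodes the matrix protein periostin, measured 335, 259 and 201 CPM in RepB-/- and 67.7, 94.1 and 114 CPM in WT (1.52 ± 0.18 SE, adjusted p = 3.19e-05). *Col3a1* rose (0.81 ± 0.15 SE, adjusted p = 0.000990), as did *Lox*, the collagen cross-linking enzyme (0.74 ± 0.11 SE, adjusted p = 0.000231). All of these lists were written with results of these data known.

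**Figure D4:**
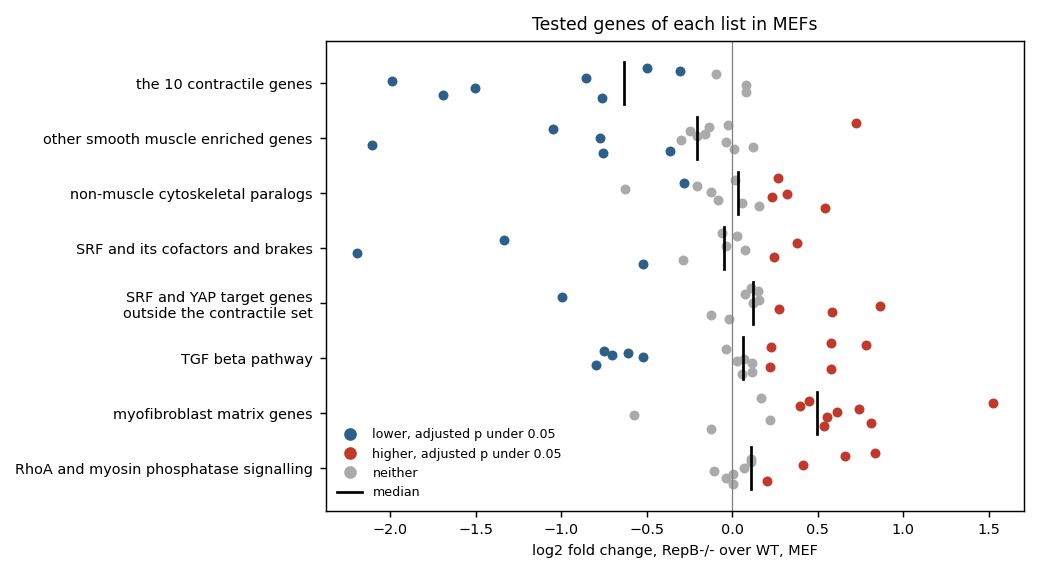
Log2 fold change in MEFs, RepB-/- over WT, of every tested gene of each list, with the list's median as a bar and colours for calls at an adjusted p under 0.05. The contractile genes lie mostly left of 0 (median -0.63) and the matrix genes mostly right of it (median 0.49), and the TGF beta list holds calls on both sides.

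Some markers of other cell types differed between the genotypes in the MEFs as well, where 19.7% of all genes tested were lower and 19.4% higher. The pericyte and stellate cell list had 3 of 6 tested genes lower and 0 higher, and its summed level was 759 to 772 CPM in RepB-/- and 804 to 985 CPM in WT. *Notch3* (-1.25 ± 0.13 SE, adjusted p = 1.08e-05) and *Cspg4* (-0.81 ± 0.077 SE, adjusted p = 6.98e-06), both known from mural cells, were lower. The other lower gene was *Abcc9*, with 3, 3 and 0 counts in RepB-/- and 18, 14 and 9 in WT (adjusted p = 0.00369), too few for its fitted size to be read. *Pdgfrb*, the most abundant gene of this list and named after its values were seen, was not lower. It had 551 ± 9.4 CPM in RepB-/- and 529 ± 61 CPM in WT (SD, n = 3, log2 fold change 0.060 ± 0.085 SE, adjusted p = 0.607). *Rgs5* and *Reln* did not pass either. *Kcnj8*, *Lrat*, *Hand2* and *Colec11* stayed below the filter on low counts. The endothelial list had 3 of 4 tested genes lower and 1 higher (20.1 to 21.9 CPM against 29.7 to 36.5 CPM), with *Pecam1* at -1.69 ± 0.17 SE (adjusted p = 9.11e-06). In RepB-/- *Pecam1* rests on 79, 63 and 63 counts. The higher one, *Tek*, lost its call with DESeq2 (adjusted p = 0.0604), with library size alone (0.0965) and with some libraries left out (up to 0.112). *Cdh5*, a lower one, lost its call without WT replicate 3 (0.0588). The skeletal muscle list had 2 of 9 lower and 0 higher (83.3 to 99.3 CPM against 161 to 226 CPM), mostly through *Acta1*, the skeletal alpha actin and itself an SRF target, which fell from 105, 172 and 133 CPM to 37.0, 37.5 and 48.0 CPM (-1.74 ± 0.15 SE, adjusted p = 2.53e-06). *Ckm*, *Tnnc2* and *Pax7* of that list stayed below the filter.

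Fibroblast markers had 3 of 6 genes higher and 1 lower (4392 to 5791 CPM in RepB-/- against 3725 to 4733 CPM in WT), with *Pdgfra* at 0.97 ± 0.079 SE (adjusted p = 1.70e-06) and *Dcn* at 1.31 ± 0.22 SE (adjusted p = 0.000438). The lower gene was *Thy1* (-0.28 ± 0.085 SE, adjusted p = 0.0196), which lost its call with some libraries left out (up to 0.104). Macrophage and leukocyte markers had 3 of 5 higher and 1 lower (117 to 151 CPM against 49.6 to 64.6 CPM), led by *Lyz2* (1.66 ± 0.18 SE, adjusted p = 2.29e-05). The lower one, *Cd68*, lost its call with some libraries left out (adjusted p up to 0.126). Keratinocyte markers were low, at 4.71 to 10.8 CPM against 2.73 to 4.33 CPM, with *Krt14* higher (1.63 ± 0.37 SE, adjusted p = 0.00331) as 1 of 3 tested. Of the cardiac list 1 of 2 tested genes was lower (4.46 to 4.94 CPM against 7.17 to 8.58 CPM). That gene, *Tnnt2*, lost its call with DESeq2 (adjusted p = 0.0528) and with some libraries left out (up to 0.0851). The fetal liver list had 1 of 2 higher and 1 lower (at most 13.8 CPM in any library), the erythroid list had 1 of 1 lower (at most 2.41 CPM in any library), and 0 of 6 hepatocyte genes could be tested. The part of these other cell types in the fall of the contractile genes was not tested.

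The mean standardised log2 CPM of the 10 genes was -0.61, -0.39 and -0.60 in the RepB-/- libraries and -0.19, 1.04 and 0.75 in WT, so WT replicate 1, also the shallowest library, lay between RepB-/- and the other WT libraries. Across the 6 libraries the 7 genes that fell had Pearson correlations with that mean profile between 0.88 and 0.97, and *Tagln*, *Cald1* and *Des* between 0.13 and 0.26. These values are a description, since the difference between genotypes enters them and each gene is part of the mean. Of the 8945 other genes with a mean of at least 10 CPM, the 5 closest to the profile were *Mtmr10*, *Cdh6*, *Tspan9*, *Basp1* and *Dpysl3*, with correlations of 0.989 to 0.994 over 6 libraries. Of these, *Cdh6*, a cadherin gene, had 12.7, 12.4 and 12.6 CPM in RepB-/- and 15.6, 30.4 and 25.0 CPM in WT.

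In liver, 0 of the 10 contractile genes passed the test in either direction, where 0.0373% of 16080 genes tested did. At an unadjusted p under 0.05, 0 of the 10 passed as well, and 502 of all genes did. DESeq2 also called 0 of the 10 and 0.369% of all genes. The median log2 fold change of the 10 genes was 0.056, beside 0.012 for all genes tested, and the SE of single genes ran from 0.32 (*Tpm1*) to 1.26 (*Actg2*). For *Acta2* the SE in liver, 0.93, was larger than the size of its fold change in MEFs.

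In liver the libraries numbered 1 differed from the others in these genes. *Acta2* (chr19:34241090-34255336, minus strand, GRCm38) measured 31.2, 9.61 and 9.13 CPM in RepB-/- and 39.6, 6.79 and 3.95 CPM in WT (log2 fold change -0.010 ± 0.93 SE). *Tagln*, with 220 to 1618 counts a library, had 25.6, 15.3 and 9.54 CPM in RepB-/- and 36.1, 9.79 and 4.65 CPM in WT (-0.00076 ± 0.75 SE). *Myl9* had 18.6, 7.66 and 3.73 CPM in RepB-/- and 13.9, 3.46 and 3.13 CPM in WT (0.55 ± 0.78 SE). In each of these genes the libraries numbered 1 of both genotypes were the highest. Within a number, the log2 ratio of RepB-/- over WT (0.5 CPM added) was -0.34, 0.47 and 1.11 for *Acta2* and -0.49, 0.62 and 0.96 for *Tagln*, so RepB-/- was lower in the libraries numbered 1 and higher in the others. Those others include the RepB-/- libraries with Y-linked counts and with 19.3% mitochondrial counts, and their numbers were not shown to pair them.

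*Myh11* followed the same order, with 10.4, 4.47 and 4.78 CPM in RepB-/- and 10.3, 4.19 and 3.46 CPM in WT (0.13 ± 0.54 SE). *Cnn1* had few counts outside the libraries numbered 1, with 2.72, 0.417 and 0.408 CPM in RepB-/- and 2.74, 0.103 and 0.444 CPM in WT (0.11 ± 1.25 SE). *Actg2* was alike, with 3.99, 0.834 and 0.204 CPM in RepB-/- and 4.24, 0.568 and 0.380 CPM in WT (-0.041 ± 1.26 SE). In *Des*, which marks hepatic stellate cells in rodent liver, the values were 10.2, 5.56 and 5.98 CPM in RepB-/- and 11.3, 5.14 and 2.66 CPM in WT (0.19 ± 0.55 SE).

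*Tpm1* and *Tpm2* were less uneven. *Tpm1* measured 40.1, 23.1 and 38.3 CPM in RepB-/- and 45.2, 39.2 and 24.1 CPM in WT (-0.097 ± 0.32 SE), and *Tpm2* ranged from 3.65 to 9.10 CPM (-0.17 ± 0.48 SE). *Cald1* alone of the 10 genes had its lowest values in the libraries numbered 1, with 158, 223 and 413 CPM in RepB-/- and 126, 244 and 181 CPM in WT (0.53 ± 0.44 SE). It was also the most abundant of the 10 in liver per length, at 35.9 to 80.0 FPKM. In all, 9 of the 10 genes were higher in both libraries numbered 1 than in the other 4 and 1 was lower, where 23.0% of all genes tested were higher and 21.3% were lower. For *Acta2* the mean of the libraries numbered 1 was 4.80 times that of the others, for *Actg2* it was 8.28 times and for *Cnn1* 7.97 times. The labels do not say what sets the replicate numbers apart.

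**Figure D5:**
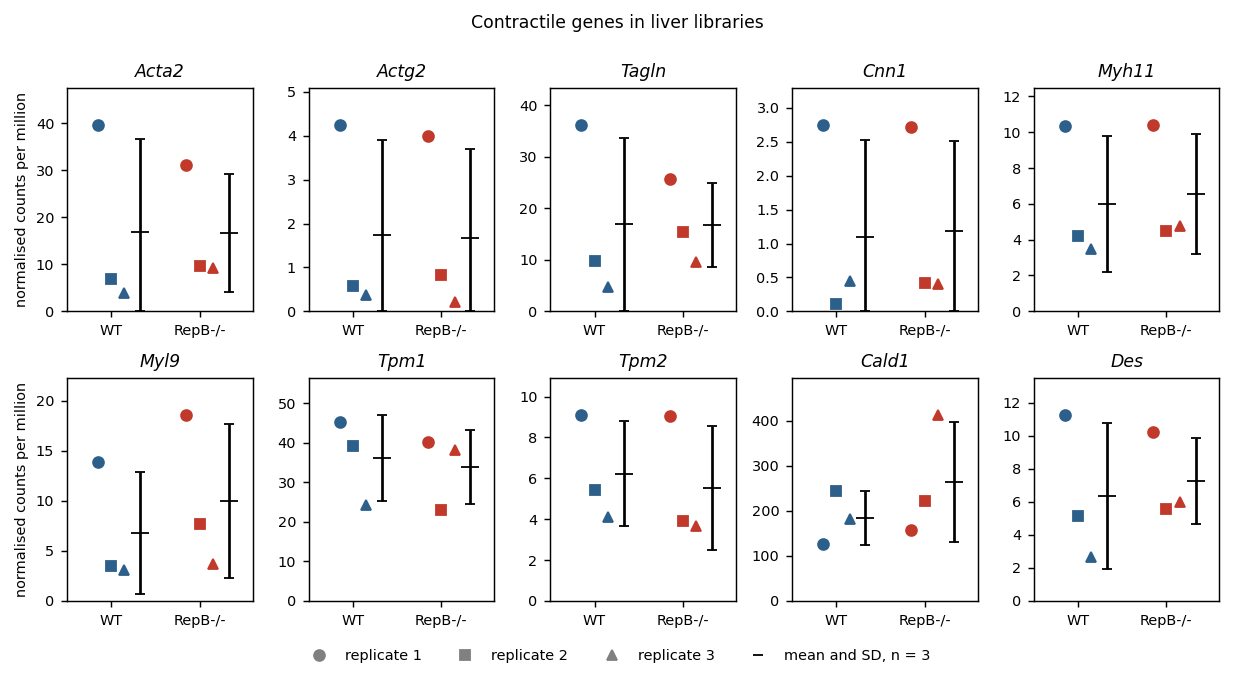
Normalised CPM of the 10 contractile genes in each liver library, with a vertical axis from 0 for each gene, symbols for the replicates and bars for mean and SD (n = 3, bars cut at 0). Replicate 1 of both genotypes is the highest for 9 genes and the lowest for *Cald1*, and the genotypes overlap for all 10.

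Genes of some other lists moved in step with this order. Of all genes tested, 23.0% were higher in both libraries numbered 1 than in the other 4, and 21.3% were lower. Of the myofibroblast matrix genes, 9 of 10 tested were higher in both libraries numbered 1 than in the other 4 (3820 and 3988 CPM summed against 1577 to 2095 CPM), and so were 12 of 16 genes of the TGF beta pathway, 5 of 9 pericyte and stellate markers and 5 of 5 endothelial markers. Of the 11 genes for RhoA and myosin phosphatase signalling 3 were higher there and 2 were lower. Of the mature hepatocyte markers 0 of 6 were higher there and 4 were lower. The part of the cell types behind these markers in the order of the contractile genes was not tested. The 5 genes closest to the mean profile of the 10 among 7868 in liver were *Itgb1*, *Gm4366*, *Tmco4*, *Foxk2* and *Spry1*, with Pearson correlations of 0.990 to 0.993 over the 6 libraries. *Itgb1*, the beta 1 integrin, had 172, 139 and 138 CPM in RepB-/- and 172, 130 and 122 CPM in WT.

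With the replicate number as a block the median log2 fold change of the 10 liver genes was 0.38 and 0 passed, with adjusted p between 0.762 and 0.980, where 0.0498% of all genes passed. Without the pair of libraries numbered 1 it was 0.58, and 0 passed. The RepB-/- side of that fit held only the library with Y-linked counts and the one with 19.3% mitochondrial counts. Leaving out the latter alone (RepB-/- replicate 3), without the block, the median was 0.30, and 0 passed. Leaving out the library with Y-linked counts (labelled RepB-/- replicate 2), the median was 0.31, with all 10 genes above 0 and 0 passed. Without WT replicate 1 the median rose to 1.06, and without RepB-/- replicate 1 it was -0.40, so the sign in liver depended on which library was left out. Of the other lists 0 genes passed in liver. *Abcc9*, a pericyte and stellate cell gene named after its values were seen, had 32.2, 24.0 and 41.6 CPM in RepB-/- and 14.7, 15.5 and 12.8 CPM in WT without overlap (1.19 ± 0.24 SE, adjusted p = 0.789), and it passed with DESeq2 (adjusted p = 0.0379). It was higher in RepB-/- there and lower in RepB-/- in MEFs, and the difference between the tissues was not tested for this gene. The erythroid list, of which 0 of 5 genes passed, summed to 656 to 2253 CPM in RepB-/- livers and 136 to 809 CPM in WT, and *Hba-a1* and *Hbb-bt* of it, named after their values were seen, passed with the block when the pair numbered 1 was left out (adjusted p = 0.0328 for both). These calls rest on the same RepB-/- libraries, that with Y-linked counts and that with 19.3% mitochondrial counts.

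Whether the genotype difference itself differed between MEFs and liver was tested in 1 fit of all 12 libraries. In it 0 of the 10 genes passed, where 0.388% of 15208 genes did, and the difference (MEF minus liver, log2) was below 0 for all 10, with a median of -0.61 beside -0.075 for all genes. *Myh11* came nearest, at -2.12 ± 0.64 SE (adjusted p = 0.179). With the replicate number as a block, 1.26% of genes passed, and *Myh11* was the 1 contractile gene among them (-2.11 ± 0.38 SE, adjusted p = 0.0488). That block paired libraries by number in both tissues, although the numbers of the MEF libraries were not taken to pair them. Nor were the numbers shown to pair liver libraries 2 and 3. *Myh11* also passed without the liver library of WT replicate 1 (-2.76, adjusted p = 0.0350), where the median of the 10 was -1.86. Without the liver library of RepB-/- replicate 1 the median was -0.023 beside 0.031 for all genes. Only 6 of the 10 were then below 0, so the shared direction depended on that library. Without the liver library with Y-linked counts (RepB-/- replicate 2) the median was -0.75, with all 10 below 0 and 0 passed. *Actg2* (-1.63 ± 0.33 SE, adjusted p = 0.0621) and *Myl9* (-1.45 ± 0.30 SE, adjusted p = 0.0668) did not pass with the block. This fit shares 1 estimate of the spread between the tissues, and the liver libraries varied more, so the fall in MEFs was not shown to be absent from liver.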

How the data were processed

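RNA-seq of 12 libraries, 3 RepB-/- and 3 WT of MEFs and of liver, was used. Genotype and replicate number came from the labels (B for RepB-/-, W for WT). Libraries of brain were not used here. The 10 genes and all lists were chosen with earlier results of these data known. Per the paper's methods, the authors made stranded paired-end mRNA libraries, with Cutadapt for trimming and Hisat2 for alignment. The submitters' processing notes name Trim Galore 0.4.1, STAR 2.7.0 and HTSeq 0.12.4 instead, and which tool made which table is not given in the sources used here. The deposited tables hold raw counts per gene, and FPKM columns that the authors scaled per library and gene length (GRCm39 coordinates in the MEF table, GRCm38 in the liver table). A further 6 per-library columns (liver TPM) were not used.

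Each tissue was fitted alone with edgeR 4.0.16 in R 4.3.3 (TMM, filterByExpr, glmQLFit, glmQLFTest), with Benjamini-Hochberg adjustment over all genes tested and a threshold of 0.05. Biological coefficients of variation were 9.06% in MEFs and 51.2% in liver. FPKM were used only to compare genes within a library. Alternatives were DESeq2 1.42.0, its size factors in edgeR, library size alone, no filter, the replicate number as a block, and each library left out in turn. Promoter matches with 1 other base and the liver block without each pair were added after seeing the data. After removal of group means, same-numbered libraries correlated at 0.71, 0.36 and 0.37 in liver and at -0.011, -0.042 and -0.0035 in MEFs. Liver libraries 2 and 3 correlated no less across numbers, at 0.41 and 0.40. The liver values thus set the libraries numbered 1 apart but do not pair 2 with 2 or 3 with 3. In MEFs the numbers were not taken to pair libraries. Nothing states that replicates are separate animals or cultures, so p-values measure the spread between these libraries, which may be technical. The fits were tested on simulated data.

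From each other list, genes that passed were named, at most the 3 of largest log2 fold change in each direction. Some genes within that rule are not reported here. The genes closest to the 10 were the 5 with the highest Pearson correlation, over the 6 libraries of a tissue, of log2 CPM (prior count 2) with the mean standardised profile of the 10. Promoter sequences came from RefSeq (GRCm38.p6). Figures used Python 3.11.15, numpy 2.4.6, pandas 2.3.3 and matplotlib 3.10.9.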

Additional observations from a re-analysis of the deposited data

How the results depend on the processing

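In MEFs the count of contractile genes that fell was 7 with DESeq2's size factors in edgeR, with library size alone and without a filter, 6 with DESeq2 itself, and 5 to 7 with 1 library left out, and 0 rose under any of these. Library size alone shifted the median log2 fold change of all MEF genes to -0.11, and that of the 10 genes to -0.74. MEF replicate numbers did not pair libraries, and with the replicate number as a block 7 of the 10 fell. In liver 0 of the 10 passed under every alternative, the block and its versions without a pair included. The test of the difference between the tissues called 1 contractile gene with the replicate number as a block in both tissues. It called 0 to 1 with 1 library left out, and 0 with each of the other alternatives. For *Tpm1* and *Tpm2* calls were lost as given above, some genes of the other lists also lost theirs, and the cause was not tested. The liver spread and the low MEF counts of *Tagln* limit what these values can show.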
